A study of Drosophila melanogaster with 6 samples.

Results

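The translation initiation and elongation factor genes of Drosophila melanogaster were taken as all protein-coding genes whose RefSeq symbol begins with eIF or eEF followed by a digit. This gave 51 of 13946 protein-coding genes on the chromosome arms. Their ends were searched for binding sites of CrebA, a bZIP transcription factor known for raising the expression of secretory pathway genes, in peak lists from ChIP-seq of embryos at stages 11 to 16. Embryos of fkh-GAL4::UAS-CrebA-GFP and of sage-GAL4::UAS-CrebA-GFP carried CrebA tagged with GFP at its C terminus, which was precipitated with an antibody to GFP. In wild-type Oregon R embryos, endogenous untagged CrebA was precipitated with an antiserum to CrebA. Every collection lasted 8 h and was followed by 11 h of ageing, and crosslinking was in 1.8% formaldehyde. Each of the 3 precipitated libraries has its own input library, for 6 samples in all.

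The design limits what each list stands for. Per the labels, the salivary gland is the only tissue in which both drivers work, and each also works elsewhere. The Oregon R list covers whole embryos. Chromatin came from 2 collections but made 1 precipitated library per group, so nothing here was checked against a replicate. Genotype, antibody, depth and amount of CrebA cannot be told apart between the lists. There were 6464 fkh-Gal4 peaks, 7916 sage-Gal4 peaks and 14039 Oregon R peaks. The construct genes CrebA and fkh had summits in every list, while sage had 2 in fkh-Gal4, 1 in sage-Gal4 and 0 in Oregon R. Peak lists hold no expression values, so the labelled tissues could not be checked against markers.

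Initiation factors bring the initiator tRNA and the small ribosomal subunit to the cap of a messenger RNA and move them to the start codon. Elongation factors then deliver each amino acid and shift the ribosome along the message. Glands that secrete large amounts of protein, such as the embryonic salivary gland, depend on a high capacity for translation at the ER. Most of these factors are encoded by a broadly used gene, and several families also hold paralogues, a number of them known for expression in the testis.

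Most factor genes had a CrebA summit close to a gene end, in every list. A gene was counted when a summit, the point of highest signal in a peak, fell no more than 1000 bp from either end of the gene. By this rule 39 of 51 factor genes (76.5%) had a summit in the fkh-Gal4 list, against 28.4% of all protein-coding genes. In the sage-Gal4 list 40 of 51 (78.4%) had one, against 38.9% of all genes. In the Oregon R list it was 42 of 51 (82.4%), against 62.4%. The share of factor genes was thus 2.69, 2.02 and 1.32 times that of all genes in fkh-Gal4, sage-Gal4 and Oregon R. Both driver lists held a summit at 38 factor genes (74.5%, against 26.2% of all genes), and all 3 lists at 37 (72.5%, against 24.9%). At least 1 list had a summit at 43 factor genes (84.3%, against 65.0%), and 8 factor genes had none anywhere.

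All 8 genes without a summit in any list belong to a group of 10 paralogues. The group holds eIF3d2, eIF3f2, eIF3g2, eIF4E3, eIF4E4, eIF4E5, eIF4E6, eIF4E7, eIF4G2 and eIF4H2. The group was set from background knowledge of gene families, and eEF1alpha2 was counted outside it. Of these 10 paralogues, 1 had a summit in the fkh-Gal4 list (10%, against 28.4% of all genes), 1 in the sage-Gal4 list (10%, against 38.9%) and 2 in the Oregon R list (20%, against 62.4%). Of the 41 other factor genes, 38 (92.7%) had one in fkh-Gal4, 39 (95.1%) in sage-Gal4 and 40 (97.6%) in Oregon R. Each of the 41 had a summit in at least 1 list, and 36 had one in all 3 (87.8%, against 24.9% of all genes). The paralogues also had fewer close neighbours. Another gene had an end within 1000 bp of one of their ends for 70.0% of them and for 92.7% of the 41.

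**Figure D1:**
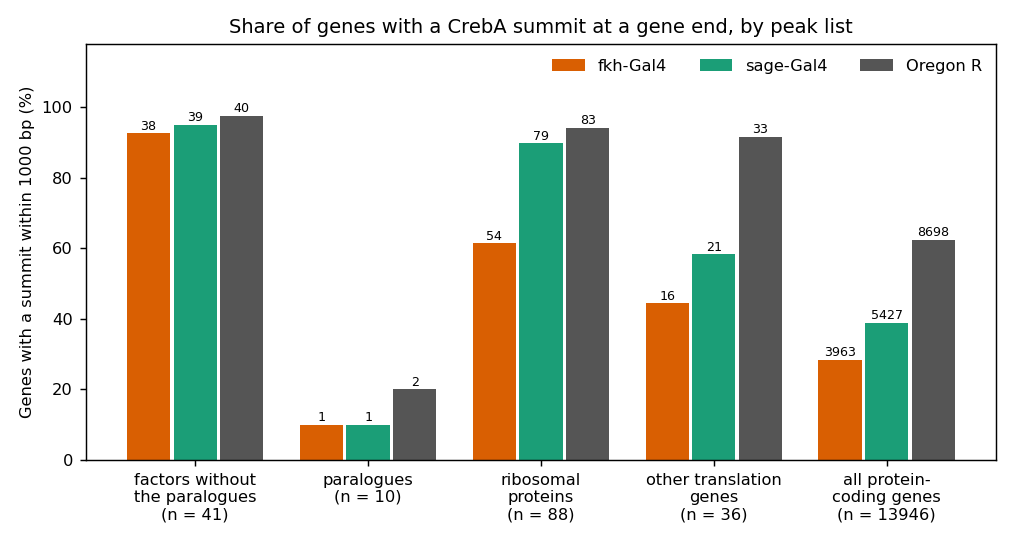
Share of genes (percent, vertical axis) with a CrebA summit within 1000 bp of a gene end, for 5 gene sets and 3 peak lists; bars are shares of genes, the number above each is the count of genes, and there are no replicates. The 41 factor genes outside the paralogue group stand above 90% in all 3 lists, and the 10 paralogues at or below 20%.

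Height was read as the authors' fold enrichment at the best summit of a gene and as the rank percentile of that fold within its own list, where 0 is the strongest peak. Folds and percentiles describe peaks within a list, and values of different lists are set side by side without reading a change from them. Factor genes with a summit had a median percentile of 15.5 in fkh-Gal4, against 38.6 for all genes with a summit there. The medians were 25.7 in sage-Gal4, against 39.9, and 22.0 in Oregon R, against 29.9. The median fold over factor genes was 2.14 in fkh-Gal4, 2.13 in sage-Gal4 and 2.30 in Oregon R. The best summit lay among the strongest 25% of peaks in all 3 lists for 13 factor genes (25.5%, against 5.1% of all genes). A best summit with a −log10 q of at least 10 in all 3 lists was held by 15 factor genes (29.4%, against 4.93%).

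**Figure D2:**
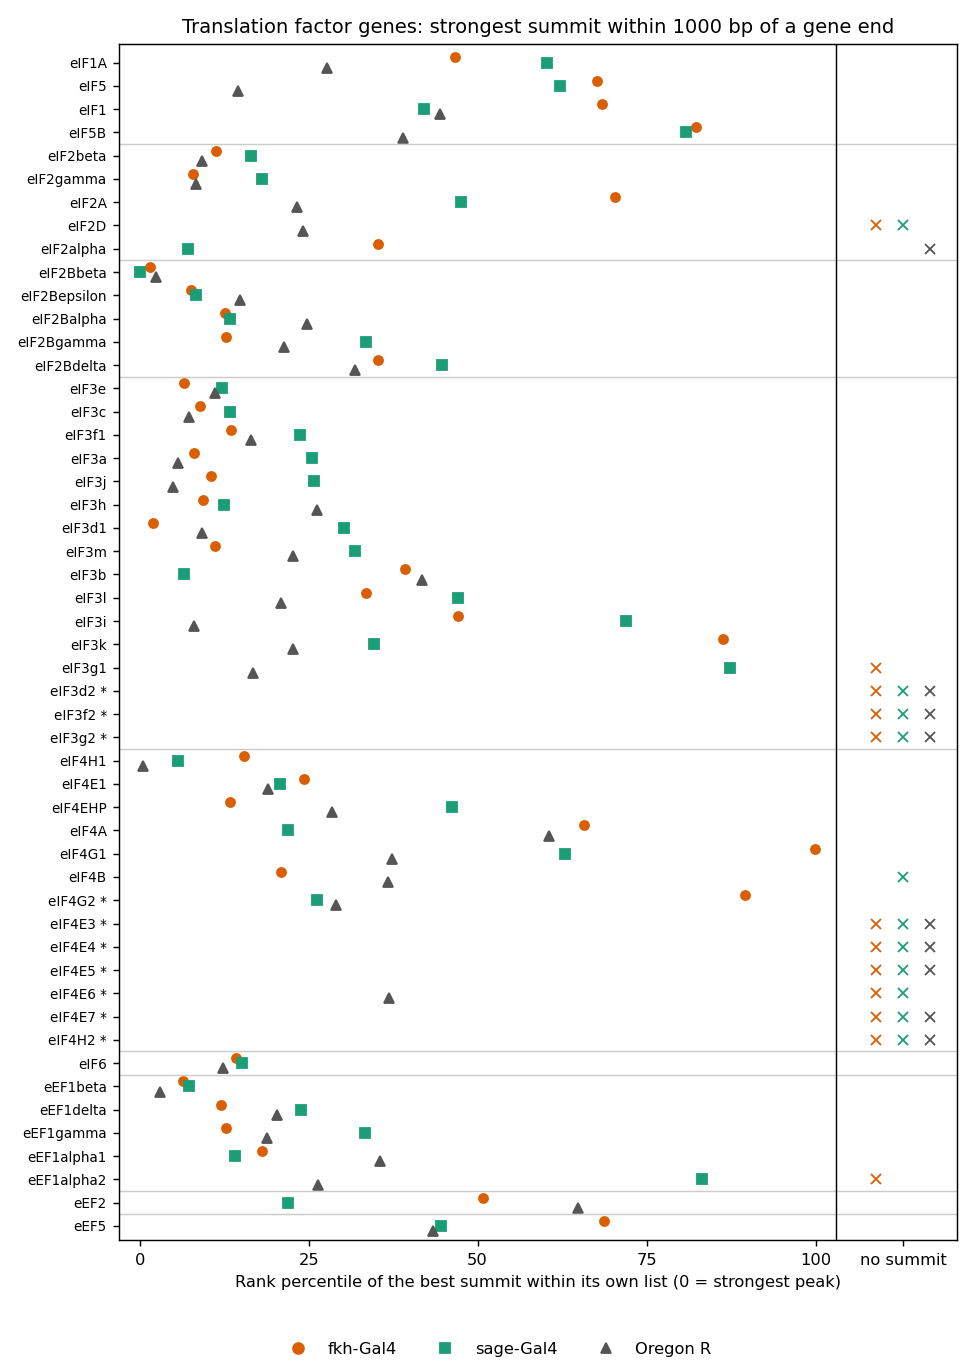
Rank percentile of the best summit of each of the 51 factor genes (horizontal axis, 0 the strongest peak of its own list), with genes grouped by role and the 3 lists by colour and marker; crosses at the right mark lists without a summit and asterisks the 10 paralogues. Most eIF3, eIF2B and eEF1 genes lie on the left, and 8 paralogues have crosses only.

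The eIF2 complex carries the initiator tRNA to the ribosome. Its gamma subunit, the GTP-binding subunit, had a summit of fold 2.35 in fkh-Gal4, 2.25 in sage-Gal4 and 2.67 in Oregon R. These summits lay 26, 40 and 24 bp from the upper end of eIF2gamma, a coordinate that Su(var)3-9 shares, and Set also had an end within the window, so the peak cannot be given to a single gene. The percentiles at eIF2gamma were 7.94, 18.1 and 8.35 in fkh-Gal4, sage-Gal4 and Oregon R. The beta subunit gene eIF2beta on 3L had folds of 2.25, 2.28 and 2.63 in fkh-Gal4, sage-Gal4 and Oregon R, at percentiles of 11.3, 16.5 and 9.27. The driver summits lay 127 and 169 bp inside eIF2beta and the Oregon R summit 207 bp outside it. Both genes were therefore among the stronger peaks of each list.

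The alpha subunit, whose phosphorylation lowers initiation under stress, differed from the other subunits. At eIF2alpha the fkh-Gal4 summit had a fold of 1.85 and lay 12 bp from the gene end, and the sage-Gal4 summit had a fold of 2.56 at 25 bp. The Oregon R list had no summit within the window, the nearest being 1983 bp away with a fold of 3.52. That Oregon R peak, at X from 16446316 to 16449725, reached over the upper end of eIF2alpha at 16446993 while its summit lay in eIF4H1. In each driver list the corresponding sites were separate peaks. The wide Oregon R peak therefore covered the end of eIF2alpha without a listed summit there.

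Of the non-canonical tRNA delivery factors, eIF2A had folds of 1.63 in fkh-Gal4, 1.87 in sage-Gal4 and 2.28 in Oregon R. For eIF2D only Oregon R had a summit within the window, with a fold of 2.26 at 129 bp. The nearest sage-Gal4 summit lay 1493 bp from eIF2D, the closest value outside the window among all factor genes, and the nearest fkh-Gal4 summit 18571 bp away. The farthest best summits inside the window were those of eIF2Bbeta, at 741 bp in fkh-Gal4, 690 bp in sage-Gal4 and 744 bp in Oregon R.

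The exchange factor eIF2B recharges eIF2 with GTP. All 5 of its subunit genes had a summit in all 3 lists, against 24.9% of all genes. In every list each of their best summits also had another gene end within 1000 bp. The highest ranks of any factor gene in the driver lists were at eIF2Bbeta on X, where the fkh-Gal4 fold was 2.79 (rank 101), the sage-Gal4 fold 3.69 (rank 4) and the Oregon R fold 3.09 (rank 335). The sage-Gal4 peak ran from 2702918 to 2704810, and its summit lay 29 bp from an end of Ugalt, which encodes a Golgi nucleotide sugar transporter. The summits in fkh-Gal4 and Oregon R were 22 and 25 bp from Ugalt, so in every list the neighbour was much nearer than eIF2Bbeta. At eIF2Bepsilon, the catalytic subunit, folds were 2.36, 2.51 and 2.46 in fkh-Gal4, sage-Gal4 and Oregon R, at percentiles of 7.61, 8.36 and 14.9. The summits lay 34, 421 and 112 bp outside eIF2Bepsilon. Its neighbour Ocrl was nearer to the summit in sage-Gal4 and Oregon R, and eIF2Bepsilon in fkh-Gal4.

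The other exchange factor genes also lay beside close neighbours. Folds at eIF2Balpha were 2.22 in fkh-Gal4, 2.36 in sage-Gal4 and 2.25 in Oregon R, with summits 48, 42 and 38 bp from its end and 138, 48 and 52 bp from Vps13B. For eIF2Bgamma they were 2.21, 2.02 and 2.32, with the V-ATPase gene Vha36-1 nearer in the fkh-Gal4 list. Folds of 1.86, 1.90 and 2.12 at eIF2Bdelta were the lowest of the 5 in each list, with roh next to it.

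The eIF3 complex is the large scaffold that holds the initiation machinery on the small ribosomal subunit. Of its 16 genes, 12 had a summit in fkh-Gal4 (75%, against 28.4% of all genes), 13 in sage-Gal4 (81.2%, against 38.9%) and 13 in Oregon R (81.2%, against 62.4%). Leaving out the 3 paralogues, 12 of 13 had a summit in all 3 lists (92.3%, against 24.9% of all genes), the exception being eIF3g1. Their median percentile was 10.9 in fkh-Gal4, 25.8 in sage-Gal4 and 16.4 in Oregon R. In fkh-Gal4, 5 of them (eIF3a, eIF3c, eIF3d1, eIF3e and eIF3h) lay in the strongest 10% of peaks, or 41.7% of the 12 with a summit, against 14.8% of all genes with one. In sage-Gal4 it was 1 of 13 (7.69%, against 12.5%), below all genes, and in Oregon R 5 of 13 (38.5%, against 15.9%). The best summits at eIF3h were 406, 414 and 288 bp from it but 155, 163 and 37 bp from senju in fkh-Gal4, sage-Gal4 and Oregon R. Weaker summits lay 145 bp from eIF3h in sage-Gal4 (fold 1.69) and 40 bp from it in Oregon R (1.85). In fkh-Gal4 no summit was nearer to eIF3h than the best one.

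At eIF3e, the Int6 subunit, the fold was 2.40 in fkh-Gal4, 2.40 in sage-Gal4 and 2.57 in Oregon R, at percentiles of 6.59, 12.2 and 11.2. The 3 summits fell within 65 bp of each other, 119 to 184 bp inside the upper end of the gene on 3L. The core subunit gene eIF3c had folds of 2.32, 2.36 and 2.71 and percentiles of 8.86, 13.4 and 7.29, with the driver summits 246 and 251 bp inside the gene and the Oregon R summit 102 bp outside it. At eIF3f1, folds were 2.19 in fkh-Gal4, 2.16 in sage-Gal4 and 2.43 in Oregon R, with summits 8, 48 and 20 bp from the gene end. The percentiles at eIF3f1 were 13.5, 23.7 and 16.4, and no other protein-coding gene end lay within 1000 bp of those summits.

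The largest subunit gene, eIF3a, had folds of 2.34 in fkh-Gal4, 2.13 in sage-Gal4 and 2.80 in Oregon R. Those summits were 504, 484 and 517 bp from eIF3a but 41, 21 and 54 bp from srl, which encodes the PGC-1 homologue. Weaker summits lay nearer to eIF3a in every list, at 43, 3 and 49 bp from an end. Their folds were 1.98 in fkh-Gal4, 2.09 in sage-Gal4 and 2.52 in Oregon R. The eIF3d1 gene had the second highest fkh-Gal4 rank of the factor genes, with a fold of 2.72, compared with folds of 2.06 in sage-Gal4 and 2.63 in Oregon R. Its best summits were at different places, spread over 832 bp. The one in sage-Gal4 lay 458 bp from eIF3d1 and 274 bp from GILT2, and a second sage-Gal4 summit of fold 1.94 lay 17 bp from eIF3d1. In Oregon R the summit was 2 bp from eIF3d1. The other core subunit gene, eIF3b, had a fold of 1.82 in fkh-Gal4 (percentile 39.2), 2.58 in sage-Gal4 (6.53) and 1.98 in Oregon R (41.8).

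The WD-repeat subunit gene eIF3i had folds of 1.76 in fkh-Gal4, 1.70 in sage-Gal4 and 2.68 in Oregon R. At eIF3k the folds were 1.54, 2.01 and 2.29. For eIF3g1, an RNA-binding subunit, the sage-Gal4 fold was 1.59 (percentile 87.3), the Oregon R fold was 2.42, and the nearest fkh-Gal4 summit was 5027 bp away. The percentiles at eIF3i were 47.1, 72.0 and 8.04 in fkh-Gal4, sage-Gal4 and Oregon R, and those at eIF3k 86.3, 34.7 and 22.7. The remaining subunit genes eIF3h, eIF3j, eIF3l and eIF3m had folds of 1.87 to 2.31 in fkh-Gal4, 1.88 to 2.39 in sage-Gal4 and 2.22 to 2.86 in Oregon R.

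The eIF4 group recognises the cap and unwinds the leader of the messenger RNA. Of its 13 genes, 7 had a summit in fkh-Gal4 (53.8%, against 28.4% of all genes), 6 in sage-Gal4 (46.2%, against 38.9%) and 8 in Oregon R (61.5%, against 62.4%). With its paralogues counted, the group was thus near the share of all genes in Oregon R. All eIF4 genes without a summit were paralogues except eIF4B in sage-Gal4. At eIF4H1, whose product is a cofactor of the eIF4A helicase, the folds of the group were highest in sage-Gal4 and Oregon R, with values of 2.14 in fkh-Gal4, 2.61 in sage-Gal4 and 3.52 in Oregon R. The Oregon R summit at eIF4H1 ranked 76 of 14039, the best rank of any factor gene in that list. The percentiles at eIF4H1 were 15.5, 5.67 and 0.541. The 3 summits lay 303 to 343 bp inside the gene and within 40 bp of each other. The cap-binding protein gene eIF4E1 had folds of 1.98, 2.21 and 2.36, at percentiles of 24.3, 20.7 and 19.0. Its summits lay 383, 420 and 147 bp inside the gene, with no other gene end in their window.

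The helicase gene eIF4A itself had lower values, with folds of 1.66 in fkh-Gal4, 2.19 in sage-Gal4 and 1.76 in Oregon R. Its driver summits lay at the lower end of the gene and its Oregon R summit at the upper end, where ifc was nearer. The scaffold gene eIF4G1, on the small chromosome 4, had folds of 1.36, 1.76 and 2.04. The fkh-Gal4 value ranked 6456 of 6464 peaks, and the Oregon R peak was 8687 bp wide with its summit at the opposite end of the gene. For eIF4EHP, a cap-binding repressor of translation, folds were 2.20, 1.88 and 2.18. The helicase cofactor gene eIF4B had a fold of 2.04 in fkh-Gal4 and 2.05 in Oregon R and its nearest sage-Gal4 summit was 85933 bp away.

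Paralogues could be set beside a partner of the same family. The partners eIF3d1, eIF3f1, eIF4E1, eIF4G1 and eIF4H1 had a summit in all 3 lists, and eIF3g1 in sage-Gal4 and Oregon R. Of the paralogues, eIF3d2, eIF3f2, eIF3g2, eIF4E3, eIF4E4, eIF4E5, eIF4E7 and eIF4H2 had none, and none of them was overlapped by a peak anywhere in its span. Their nearest summits lay 3305 to 80403 bp away in fkh-Gal4, 3376 to 80438 bp in sage-Gal4 and 4414 to 40511 bp in Oregon R. The fkh-Gal4 minimum was at eIF4E5 and the maximum in all 3 lists at eIF3g2.

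The exceptions were eIF4G2 and eIF4E6. At eIF4G2, an eIF4G homologue needed in male meiosis, folds were 1.52 in fkh-Gal4, 2.12 in sage-Gal4 and 2.17 in Oregon R. The percentiles at eIF4G2 were 89.5, 26.2 and 29.0, so its fkh-Gal4 peak was among the weakest of that list. The summits lay at an end that CG33111 shares, 85, 142 and 83 bp away. For eIF4E6 only Oregon R had a summit, of fold 2.05 (percentile 36.9) at 59 bp, and CG1951 was nearer at 3 bp.

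Start codon selection was covered by 4 genes, and all 4 had a summit in all 3 lists, against 24.9% of all genes. Their driver peaks were low, with a median percentile of 68.0 in fkh-Gal4 and 61.2 in sage-Gal4, compared with 33.3 in Oregon R. The scanning factor gene eIF1 had folds of 1.64, 1.92 and 1.95 in fkh-Gal4, sage-Gal4 and Oregon R, and its partner eIF1A had 1.76, 1.77 and 2.19. The gene of eIF5, which stimulates GTP hydrolysis by eIF2, had folds of 1.65, 1.76 and 2.47. Its driver summits lay at the upper end and its Oregon R summit at the lower end, 5058 bp apart. The Oregon R summit was 141 bp from eIF5 and 59 bp from ND-20. In fkh-Gal4 and sage-Gal4 the summits were 120 and 49 bp from eIF5 and equally far from CG46312. Folds at the subunit joining factor gene eIF5B were 1.57, 1.64 and 2.02. The gene of eIF6, which keeps the ribosomal subunits apart, had folds of 2.18, 2.32 and 2.53, at percentiles of 14.2, 15.2 and 12.3. Its summits lay 123, 82 and 89 bp outside the gene, and no other gene end was in the window.

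Elongation begins with eEF1, which brings aminoacyl-tRNA to the ribosome. Its exchange subunit gene eEF1beta ranked second among factor genes by the worst of its percentiles, with folds of 2.41 in fkh-Gal4, 2.55 in sage-Gal4 and 3.01 in Oregon R. Its percentiles were 6.48, 7.34 and 3.06. The 3 summits at eEF1beta fell within 8 bp, 107 to 115 bp inside the gene, the narrowest spread of any factor gene. The other exchange subunit gene, eEF1delta, had folds of 2.23, 2.16 and 2.34 and percentiles of 12.1, 23.8 and 20.3, with summits within 18 bp of each other and 108 to 126 bp inside the gene. At eEF1gamma, the structural subunit, folds were 2.21, 2.02 and 2.37.

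The main tRNA carrier gene, eEF1alpha1, had folds of 2.09 in fkh-Gal4, 2.34 in sage-Gal4 and 2.07 in Oregon R. Its summits lay 163, 172 and 179 bp from the gene but 7, 16 and 23 bp from ERp60, which encodes an ER disulfide isomerase. The second carrier gene, eEF1alpha2, known from neurons and adult tissue, had its nearest fkh-Gal4 summit 3030 bp away, outside the window. It had a fold of 1.63 in sage-Gal4 and 2.22 in Oregon R, and Tbca was nearer in both. The translocation factor gene eEF2 had folds of 1.74, 2.19 and 1.72, with the driver summits at the upper end and the Oregon R summit at the lower end near CG2225. At eEF5, the eIF5A gene whose product carries hypusine and relieves stalled ribosomes, folds were 1.64, 1.90 and 1.96. The best Oregon R summit lay 590 bp from eEF5, with ppk29 nearer, and another of fold 1.72 lay 11 bp from eEF5.

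The lists placed their summits at similar points of the factor genes. In 33 of the 37 factor genes with a summit in all 3 lists (89.2%) the best summits lay at the same gene end, against 83.4% of the 3469 such genes overall. The distance between the outermost of the 3 summits had a median of 104 bp over factor genes, against 249 bp over all such genes. The exceptions were eEF2, eIF4A, eIF5 and eIF4G1. Spearman's rho of the percentiles over factor genes was 0.58 between the driver lists (38 genes), 0.68 between fkh-Gal4 and Oregon R (38) and 0.35 between sage-Gal4 and Oregon R (39). Over all genes it was 0.56, 0.34 and 0.31. The points share neighbours and libraries, and these values are descriptions.

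Within the window the summits of factor genes lay close to the end and more often inside the gene. The median distance was 141 bp in fkh-Gal4, 170.5 bp in sage-Gal4 and 127.5 bp in Oregon R, against 286, 230 and 151 bp for all genes with a summit. The best summit lay inside the gene for 26 of 39 factor genes in fkh-Gal4 (66.7%, against 40.4%), for 25 of 40 in sage-Gal4 (62.5%, against 40.4%) and for 19 of 42 in Oregon R (45.2%, against 23.7%). No best summit of a factor gene lay more than 744 bp from an end. Which end is the start of transcription was not determined, as the gene table used here has no strand.

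**Figure D3:**
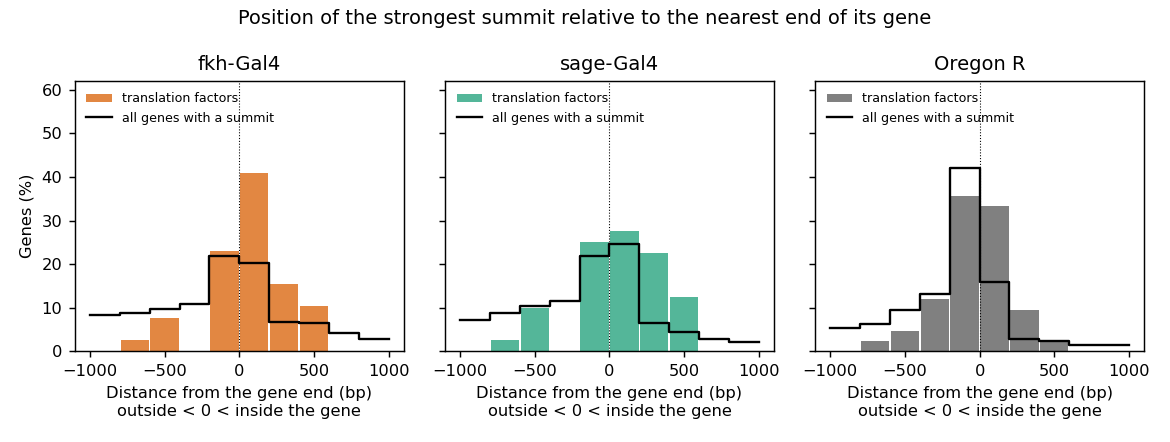
Position of the best summit relative to the nearest gene end (horizontal axis, bp, negative outside and positive inside the gene) as a percentage of genes with a summit, in bins of 200 bp, for factor genes (bars) and all protein-coding genes with a summit (line) in 3 lists. In fkh-Gal4, 41.0% of factor genes fall in the first 200 bp inside the gene, against 20.3% of all genes with a summit.

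Many of these summits sit between close genes. Another protein-coding gene had an end within 1000 bp of the best summit at 31 of 39 factor genes in fkh-Gal4 (79.5%), 32 of 40 in sage-Gal4 and 35 of 42 in Oregon R (83.3%). Over all genes with a summit this share was 77.9%, 77.4% and 77.3%. A neighbour was nearer to the summit than the factor gene in 6, 8 and 12 cases. That is 15.4% of factor genes with a summit in fkh-Gal4 and 28.6% in Oregon R, against 40.7% and 38.3% of all genes with one. For 24 factor genes with a summit in all 3 lists no other gene end was nearer in any list, and the share of all genes for this was not counted. Only eIF6, eIF4E1, eIF3f1, eEF1gamma and eIF4G1 had a summit in each list with no other gene end within 1000 bp (9.8%, against 4.58% of all genes).

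Counting only summits with no other gene end within 1000 bp, 9 factor genes had one in fkh-Gal4 (17.6%, against 7.36% of all genes) and 9 in sage-Gal4 (17.6%, against 10%). In Oregon R it was 7 (13.7%, against 17.4%), so by this count the factor genes stood below all genes there. Both driver lists had such a summit at 7 (13.7%, against 5.69%). This way of counting was chosen after the data were seen.

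Higher peaks and other windows were counted in the same way. With summits of a −log10 q of at least 10, fkh-Gal4 held 22 factor genes (43.1%, against 7.03% of all genes) and sage-Gal4 19 (37.3%, against 10.2%). Oregon R held 39 (76.5%, against 42.8%), and both driver lists 15 (29.4%, against 5.25%). When each list was limited to its 1000 highest folds, fkh-Gal4 held 19 factor genes (37.3%, against 6.23%) and sage-Gal4 8 (15.7%, against 6.17%). Oregon R held 5 (9.8%, against 6.95%), and both driver lists also 5 (9.8%, against 3.32%).

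Other windows and other ways of giving peaks to genes kept the factor genes above all genes in every list. Within 500 bp, 38 factor genes had a summit in fkh-Gal4 (74.5%, against 21.7%), 37 in sage-Gal4 (72.5%, against 31.4%) and 41 in Oregon R (80.4%, against 54.7%). Both driver lists had 34 (66.7%, against 19.1%). Within 2000 bp the counts were 39 (against 35.0%), 41 (against 46.0%) and 43 (against 69.7%), and 38 for both driver lists (against 33.1%). With each summit given to its nearest gene only, they were 36 (against 19.4%), 34 (against 27.3%), 33 (against 45.1%) and 31 (against 16.2%). With a peak anywhere over the span of the gene, they were 39 (against 24.7%), 39 (against 31.9%), 43 (against 58.6%) and 38 (against 22.6%).

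Crowding of genes also moved with the share of genes that had a summit. Of all genes, 80.5% had another gene with an end within 1000 bp of one of their own ends, and of the factor genes 88.2%. Among the 35 factor genes with at least 2 such neighbours, 31 had an fkh-Gal4 summit (88.6%, against 37.5% of all genes so placed). In sage-Gal4 it was 32 (91.4%, against 49.9%) and in Oregon R 33 (94.3%, against 75.7%). Of the 6 factor genes with no such neighbour, 3 had a summit in fkh-Gal4 (50%, against 11.7% of all genes so placed). In sage-Gal4 it was 2 (33.3%, against 18.2%) and in Oregon R 3 (50%, against 34.8%). The 3 of these 6 without any summit were paralogues.

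**Figure D4:**
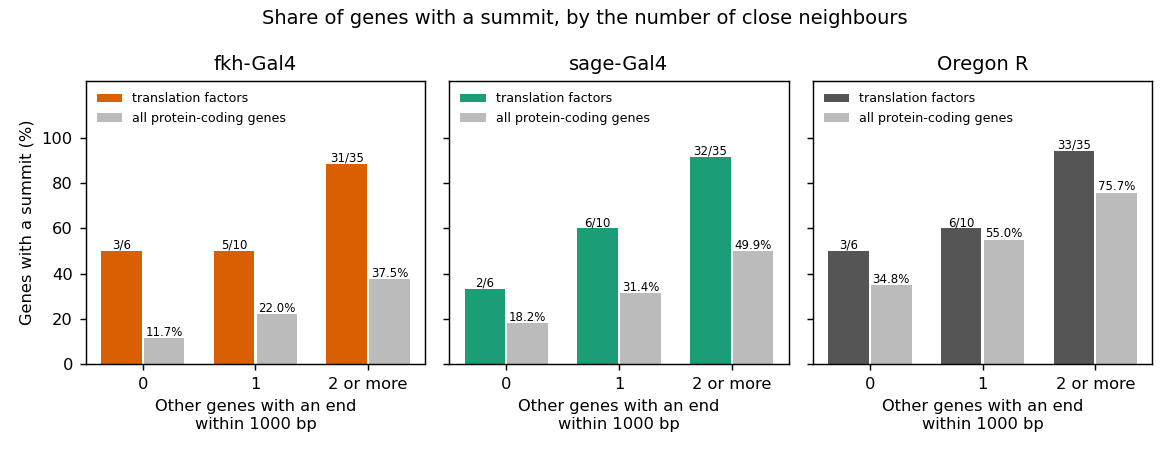
Share of genes with a summit (percent) by the number of other protein-coding genes with an end within 1000 bp, for factor genes (coloured bars, counts above) and all protein-coding genes (grey, percent above), in 3 lists. Factor genes stand above all genes in each class, by the least in Oregon R at 1 neighbour (6 of 10, against 55.0%).

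Ribosomal protein genes are the gene group closest in function. Of 88, 54 had a summit in fkh-Gal4 (61.4%, against 28.4% of all genes), 79 in sage-Gal4 (89.8%, against 38.9%) and 83 in Oregon R (94.3%, against 62.4%). These shares were above those of the factor genes in sage-Gal4 (78.4%) and Oregon R (82.4%), and below in fkh-Gal4 (76.5%). A summit in sage-Gal4 and Oregon R but not in fkh-Gal4 was found at 2 factor genes (3.92%), at 25 ribosomal protein genes (28.4%) and at 11.9% of all genes. The median percentile in fkh-Gal4 was 15.5 for factor genes, compared with 37.0 for ribosomal protein genes, and in sage-Gal4 25.7 compared with 31.9. No test of these differences was made.

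Other genes of translation and its control were counted in the same way. Of 36 such genes, 16 had a summit in fkh-Gal4 (44.4%, against 28.4% of all genes), 21 in sage-Gal4 (58.3%, against 38.9%) and 33 in Oregon R (91.7%, against 62.4%). The share was above that of all genes in each list and, in the driver lists, below that of the factor genes. Ordered by the worst of the 3 percentiles, the first was S6k, with folds of 2.48, 2.58 and 2.53. Its product is the kinase that acts on ribosomal protein S6 below the Tor kinase. These summits were 2, 247 and 19 bp from S6k and 40, 289 and 23 bp from kri. S6k was followed by the release factor gene eRF1 (2.35, 2.44 and 2.34) and by pix, the ribosome recycling factor gene (2.73, 2.79 and 2.26). At eRF1, Rbbp5 also had an end within the window in all 3 lists, but farther from the summit. Srp68 also had an end within the window at pix in all 3 lists, and was nearer in fkh-Gal4, at 106 bp against 175 bp. Within the single lists the order differed, as pix had ranks 127 and 231 in fkh-Gal4 and sage-Gal4 and S6k ranks 327 and 516. Next by the worst percentile came Pdcd4, an inhibitor of eIF4A, the mitochondrial elongation factor gene mEFTu1, and nero. The nero gene encodes the hydroxylase of hypusine synthesis on eEF5. Its best summits in fkh-Gal4 and sage-Gal4 lay 1000 and 914 bp away, with CG1910 nearer. The second release factor gene, eRF3, had folds of 2.41 in fkh-Gal4 and 2.34 in sage-Gal4 and no Oregon R summit within the window. An Oregon R peak did overlap the span of eRF3, and the nearest Oregon R summit, of fold 2.76, lay 2059 bp from an end. SC35 also had an end within the window at both driver summits of eRF3.

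Among 9 genes of signalling to initiation, 2 had a summit in both driver lists (22.2%, against 26.2% of all genes), a share near that of all genes. All 9 had one in Oregon R, against 62.4% of all genes. The 2 in both driver lists were S6k and PEK, the kinase that phosphorylates eIF2alpha under ER stress, with folds of 1.76, 1.73 and 2.03 at PEK. The other eIF2alpha kinase gene, Gcn2, had an Oregon R summit only. For Thor, the inhibitor of eIF4E1, folds were 1.49 in fkh-Gal4 (percentile 92.7), 2.81 in sage-Gal4 (2.78) and 1.95 in Oregon R (44.1). Of 6 mitochondrial factor genes, 1 had a summit in fkh-Gal4 (16.7%, against 28.4% of all genes), 3 in sage-Gal4 (50%, against 38.9%) and 6 in Oregon R (against 62.4%).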

How the data were processed

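The submitters' processing notes name BWA, the dm6 build and the peak caller MACS2 (2.1.0.20140616). How the inputs entered the calls and whether collections were pooled is not given in the sources used here. For each peak the authors deposited a fold enrichment at the summit (a ratio), −log10 p and −log10 q (a p-value and a q-value of their caller), an integer score, and how far into the peak its summit lies, in bp (another unit). The score and the −log10 p were not used. The lowest −log10 q in a list was 1.3 to 1.31. Peak lists hold no read counts, so depth and counting error are unknown.

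Protein-coding genes on the chromosome arms (13946) came from an NCBI RefSeq table of release 6, the assembly of dm6. The table used here has no strand, so a window of 1000 bp around either gene end was used. A summit within 1000 bp of several genes was given to each. The best summit of a gene is the one of highest fold in its window. The rank percentile of a peak is its rank by fold as a percentage of its list. The planned start-only window and promoter search need strand and sequence and were not run. Code was tested on simulated data.

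Members and lists were chosen with earlier results of these data known, so counts carry no test. The text gives summit distance, fold and rank or rank percentile for the 12 factors best ranked by the worst of their 3 percentiles. Factors without a summit are given with the range of their nearest distances. The other paralogues and the partners are given with folds, and only some with all distances, ranks or percentiles. Other genes of the fixed translation list are named by the worst of their 3 percentiles (the best 6). Genes named beyond this, including other factors, neighbours at shared summits and genes with exceptional patterns, were chosen after their values were seen. Of 38 genes on that list, 36 were matched. Alternatives are in the closing section. Tables were made with pandas 2.3.3, rank correlations with scipy 1.17.1 and plots with matplotlib 3.10.9 (Python 3.11.15, numpy 2.4.6).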

Additional observations from a re-analysis of the deposited data

How the results depend on the processing

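Of 31 values under alternative settings, 20 stayed within 1.5 times the main count or within the interquartile range of the main percentiles, and 11 did not. Windows of 500 and 2000 bp, the nearest gene only and peaks over the gene span gave 36 to 39 factor genes in fkh-Gal4, 34 to 41 in sage-Gal4, 33 to 43 in Oregon R, and 31 to 38 in both driver lists. Counts that moved did so by construction, as fewer summits were used. With a −log10 q of at least 10 there were 22 for fkh-Gal4 (7.03% of all genes), 19 for sage-Gal4 (10.2%) and 15 for both (5.25%). With the 1000 peaks of highest fold there were 19 (6.23%), 8 (6.17%), 5 for Oregon R (6.95%) and 5 for both (3.32%). Summits with no other gene end within 1000 bp, an alternative chosen after the data were seen, gave 9 in fkh-Gal4 (7.36%), 9 in sage-Gal4 (10%), 7 in Oregon R (17.4%) and 7 in both (5.69%). The share of factor genes exceeded that of all genes under every setting run, except in Oregon R under this last one, where the ratio was 0.79. Ranked by −log10 q, the median percentile was 12.4 in fkh-Gal4, 20.5 in sage-Gal4 and 18.3 in Oregon R. No paired analysis was possible because each group has 1 library. Read depth is unknown, so a missing summit may lie below detection. The start-only window was not run.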

Other observations

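The strongest peak of the whole Oregon R list, of fold 3.98 and rank 1, had its summit at 3L position 6653060. Its nearest protein-coding gene end was that of eIF4E4, at 11164 bp, and the nearest driver summits lay 27324 bp (fkh-Gal4) and 27280 bp (sage-Gal4) from eIF4E4. A weaker Oregon R summit of fold 1.54 lay 10203 bp from the same gene. The summit nearest to eIF3d2, of fold 1.81 at 10129 bp in Oregon R, also had eIF3d2 as its nearest gene.

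Both release factor genes of cytosolic translation, eRF1 and eRF3, had driver summits. The gene pelo encodes an eRF1 relative that acts on stalled ribosomes. Only sage-Gal4 had a summit within its window, of fold 1.73, with hoip nearer, though fkh-Gal4 and Oregon R peaks overlapped the span of pelo. Its partner gene HBS1 had folds of 1.68 in fkh-Gal4, 2.02 in sage-Gal4 and 2.51 in Oregon R. A neighbour was nearer to the best summit than HBS1 in both driver lists (Rap1 in fkh-Gal4, CG12025 in sage-Gal4). The ribosome recycling genes MCTS1 and DENR had summits within the window in different lists. For MCTS1 these were in fkh-Gal4 (fold 1.70, with rux nearer) and sage-Gal4 (1.75). An Oregon R peak overlapped the span of MCTS1, with its summit outside the window. For DENR the summit was in Oregon R (1.75, with Polr3I nearer). Of the Tor pathway genes, raptor had folds of 2.0 in sage-Gal4 and 3.12 in Oregon R, while Rheb, gig and Tsc1 had Oregon R summits of fold 2.52, 2.54 and 2.02 and no driver summit within the window. The Oregon R summit at Rheb was nearer to CRMP, at 76 bp against 541 bp.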
